A study of Saccharomyces cerevisiae with 36 samples.

Results

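The 54 nuclear genes of the yeast Saccharomyces cerevisiae whose common names are MRPL, MRPS or RSM followed only by digits encode proteins of the mitochondrial ribosome. They were taken by name from the 7122 gene lines of the count tables, by a rule that used no measured values. Earlier results of these data were known when the members were chosen. The 34 MRPL genes encode proteins of the large subunit, and the 20 MRPS and RSM genes (9 and 11) belong to the small subunit. All 54 matched the RefSeq annotation of build R64, where they lie on 14 chromosomes with coding lengths of 213 to 1887 bases (median 706.5).

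RNA was sequenced from chemostats, vessels in which a steady feed holds a culture at a fixed growth rate while a scarce nutrient limits it. The 36 libraries form 12 groups of 3 biological replicates, made of 3 sets of cultures with 4 limitations each. The DASGIP tagged set held the strain HAP1-TAP in a 1 L DASGIP vessel. This strain is CEN.PK 113-5D with a CBP-ProtA purification tag at the C-terminus of Hap1p, a haem-dependent regulator of respiratory genes. The same strain was held by the MC tagged set in MC vessels (mini-chemostats, going by the series title), and MC untagged cultures were CEN.PK 113-5D itself in the same kind of vessel. Nitrogen was limiting in N-lim, which had 6% glucose. Et-lim cultures were fed 0.5% ethanol and Glu-lim cultures 0.75% glucose. In OxGlu-lim, with 1% glucose, both oxygen and glucose were limiting. Cultures were sampled after 48 to 60 h at steady state.

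Mitochondria carry their own ribosomes, which make the few proteins encoded by mitochondrial DNA, most of them core subunits of the respiratory chain and the ATP synthase. In yeast the 15S and 21S rRNAs of these ribosomes and a single protein, Var1, are made from mitochondrial DNA, and all other ribosomal proteins are encoded in the nucleus, translated in the cytosol and imported. Many of their mRNAs are known targets of Puf3, an RNA-binding protein that recognises UGUANAUA in the 3′ untranslated region and that has been tied to mRNA decay and to translation near mitochondria.

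Libraries held 10.7 to 22.5 M counted reads (median 16.7 M, with M for 1000000), and a single member had 149 to 1535 reads in a library. The 9 marker genes of N-lim, Et-lim and OxGlu-lim, such as GAP1 for N-lim, were each higher in all libraries of their limitation than in any other library. Mitochondrially encoded genes took 10.9% to 15.9% of the reads in the N-lim group means, 18.4% to 23.4% in OxGlu-lim, 27.0% to 33.9% in Glu-lim and 34.5% to 43.3% in Et-lim. Levels are therefore given in CPM, counts per 1000000, on TMM-scaled library sizes, which align the bulk of genes between libraries, and counts and medians over the members that move with plain library totals are given beside the mean contrasts. In bulk RNA a change in all cells and a change in a part of them cannot be told apart.

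The sequences after the stop codons are shown because a Puf3-type site is what nearly all members share. In the 200 bases after the stop codon, on the coding strand, the 8-letter motif TGTANATA (the DNA form of UGUANAUA, N being any base) was found in 53 of 54 members. The 24-base windows that follow are from the RefSeq R64 reference, which is another strain than CEN.PK, read 5′ to 3′ along the coding strand with the motif in capitals. They show RSM19, MRPL9 and MRPL39, which were among the 4 members with the largest falls under N-lim (MRPL4, the third, is not shown), MRPS17 and MRPL25, with the largest rises under OxGlu-lim and Et-lim, and MRPL33 and MRPL23, whose pattern over the groups was least like that of the other members.
RSM19, site nearest the stop codon (chrXIV:695027-695050, minus strand): ggatctagTGTATATAgatttcta
RSM19, middle site (chrXIV:694999-695022, minus strand): atatatcaTGTAAATAagatcaag
RSM19, farthest site (chrXIV:694971-694994, minus strand): actcgggcTGTATATAtatatata
MRPL9 (chrVII:936026-936049, minus strand): tacaatcaTGTACATAcatcaata
MRPL39 (chrXIII:251210-251233, minus strand): atttatccTGTAAATAagtaatgg
MRPS17 (chrXIII:636220-636243, minus strand): ctacactcTGTAAATAtatacaac
MRPL25 (chrVII:637011-637034, minus strand): tctaatcaTGTAAATAattttgtg
MRPL33, nearer of its sites (chrXIII:842252-842275, plus strand): cttatataTGTATATAgtattatt
MRPL23 (chrXV:612538-612561, plus strand): tcaatccaTGTATATAtttatctg

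The 53 members held 66 sites, and 12 of these genes had more than 1. The motif started 8 to 165 bases after the stop codon (median 56.5). The base that may vary was A in 29 sites, T in 20, C in 16 and G in 1. Among all 5825 nuclear genes whose windows could be read, 839 (14.4%) held the motif. RSM22, a member related to RNA methyltransferases, was the only one of the 54 without it in this window. The windows can run into a neighbouring gene, and a match is a description of letters, not of binding.

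The same motif stood in 25 of 25 mitochondrial ribosomal protein genes that carry other names, and in 13 of 13 genes for mitochondrial tRNA synthetases. It stood in 9 of 12 mitochondrial translation factors, 13 of 17 translational activators and 8 of 10 assembly and membrane factors. Cytosolic ribosomal protein genes held it in 6 of 137, nuclear genes of the respiratory chain in 2 of 22, and ATP synthase genes in 3 of 13. Promoter motifs, searched on both strands from 250 bases before to 50 after the start codon, were not found in such a share of members. CCAAT, the element of the Hap2/3/4/5 activator of respiratory genes, was in 40.7% of members against 43.5% of all promoters and 81.8% of respiratory chain genes. AATTTT, an element known upstream of growth genes in several yeasts, was in 35.2% of members against 52.4% of all promoters. CACGTG, bound by Cbf1, was in 3.70% against 2.97%, and TGACTC, the Gcn4 element, in 1.85% against 8.17%.

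**Figure D1:**
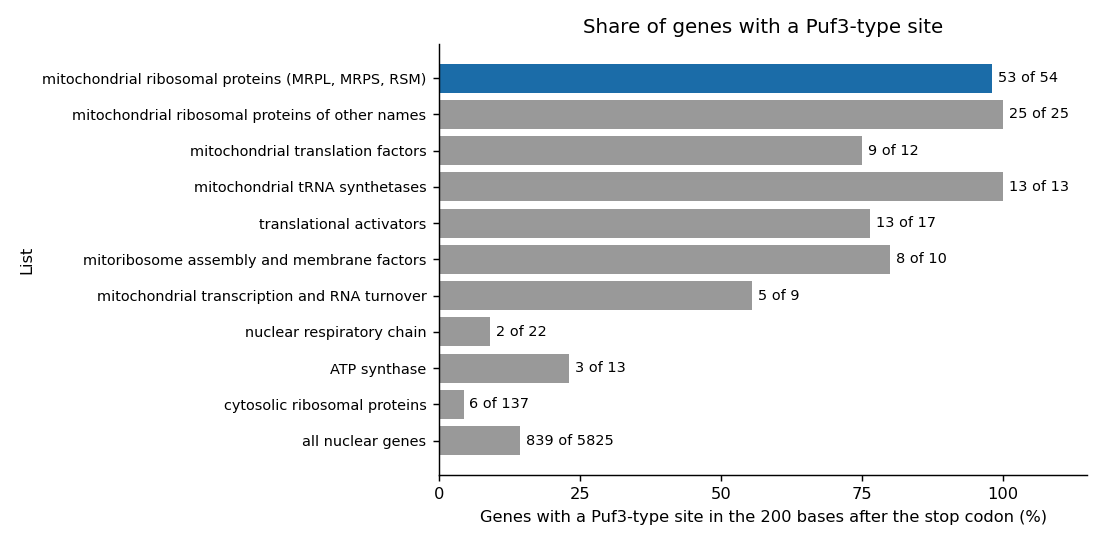
Horizontal bars give the percentage of genes in each list that hold TGTANATA on the coding strand in the 200 bases after the stop codon, with the number of genes beside each bar. Mitochondrial ribosomal protein genes stand at 53 of 54 and 25 of 25, all nuclear genes at 839 of 5825.

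Read together, the 54 genes were lowest under N-lim and highest under OxGlu-lim. Their summed level had a lowest, median and highest value of 1466, 1667 and 1887 CPM over the 9 N-lim libraries. The same values were 1790, 1944 and 2334 CPM under Glu-lim, 1813, 2309 and 2464 CPM under Et-lim, and 2243, 2318 and 2652 CPM under OxGlu-lim. N-lim and OxGlu-lim libraries did not overlap, whereas each limitation overlapped with the next in this order. By set, the N-lim and OxGlu-lim means were 1868 ± 28.0 and 2345 ± 28.9 CPM (SD, n = 3) in DASGIP tagged, 1571 ± 95.5 and 2500 ± 177 CPM in MC tagged, and 1661 ± 37.9 and 2255 ± 20.4 CPM in MC untagged.

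On plain library totals OxGlu-lim remained highest, at 2363 to 3094 CPM with a median of 2605 CPM, but the other limitations changed places. N-lim had 1810 to 2496 CPM (median 2062), Glu-lim 1674 to 2022 CPM (median 1768) and Et-lim 1141 to 2134 CPM (median 1835). The place of N-lim relative to Glu-lim and Et-lim thus depends on the scaling. As a share of nuclear reading frame reads the group means of the members were 0.317%, 0.263% and 0.274% under N-lim, naming DASGIP tagged first, MC tagged next and MC untagged last. They were 0.333%, 0.336% and 0.351% under Glu-lim, 0.354%, 0.397% and 0.352% under Et-lim, and 0.406%, 0.452% and 0.416% under OxGlu-lim.

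**Figure D2:**
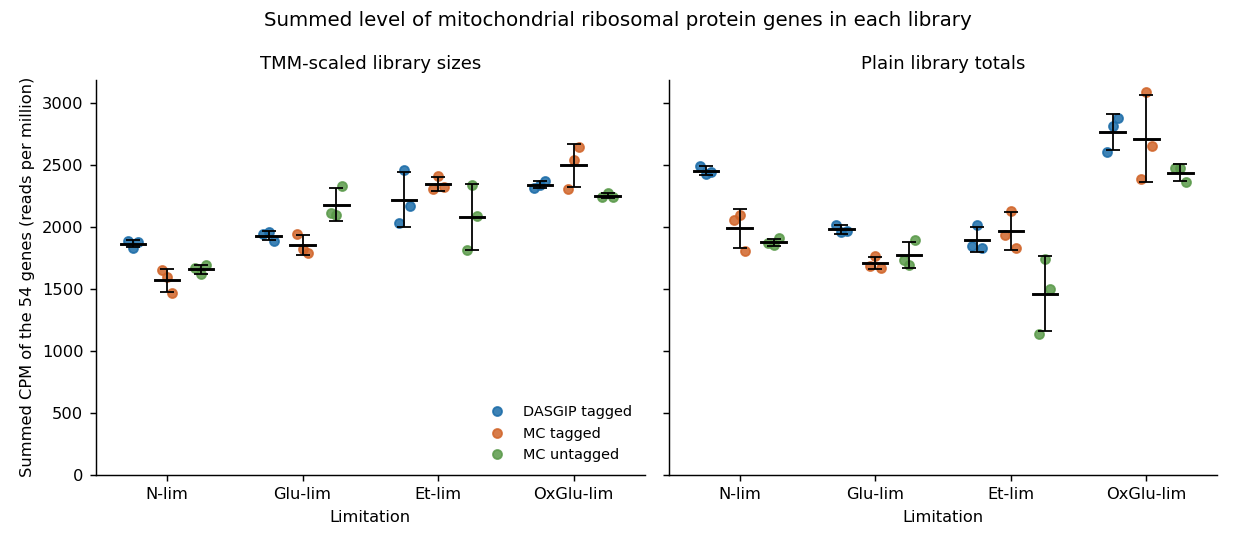
Points are the summed CPM of the 54 genes in each of 36 libraries, by limitation and set, with black bars for the mean ± SD of 3 libraries. With TMM scaling (left) N-lim libraries sit at 1466 to 1887 and OxGlu-lim libraries at 2243 to 2652; on plain totals (right) N-lim rises to 1810 to 2496, above most Glu-lim libraries, and OxGlu-lim stays highest.

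Gene by gene, OxGlu-lim gave the highest mean level for 36 of 54 members, Et-lim for 17 and N-lim for 1, with none highest under Glu-lim. Over all genes tested the shares were 27.0% for OxGlu-lim, 23.3% for Et-lim, 30.2% for N-lim and 19.5% for Glu-lim. N-lim was the lowest limitation for 43 members, Glu-lim for 8, Et-lim for 2 and OxGlu-lim for 1, where the shares of all genes were 30.7%, 18.5%, 25% and 25.7%. These orders are with TMM scaling and were not run on plain totals, where the summed level of N-lim changed place.

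Joint limitation by oxygen and glucose was compared with glucose limitation by OxGlu-lim minus Glu-lim, averaged over the 3 sets. The cultures also differed in glucose, 1% against 0.75%, so oxygen and glucose cannot be told apart. By edgeR's quasi-likelihood test with an adjusted p under 0.05 over 6612 genes, 40 of 54 members rose, where 32.9% of all genes did, and 1 fell, where 32.3% did. The median change of the members was 0.23 on the log2 scale (1.17-fold), and that of all genes 0.01. On plain totals 53 members rose and none fell, with all genes shifted by 0.29. The direction was the same in both scalings, but the shift of all genes is part of the change on plain totals. The share of all genes called there is not given. No member reached a 2-fold mean change.

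MRPS17, the homologue of bacterial S17, an early-binding small subunit protein, rose by most. It stood at 31.8, 41.5 and 47.9 CPM (lowest, median, highest of 9 libraries) under Glu-lim and at 56.5, 66.2 and 76.3 CPM under OxGlu-lim, without overlap. Its change was 0.71 ± 0.07 (SE, log2; adjusted p = 2.77e-10). MRPS16, the homologue of bacterial S16, went from 25.9, 30.9 and 35.4 CPM to 39.4, 46.2 and 55.8 CPM, again without overlap, by 0.62 ± 0.06 (adjusted p = 2.73e-10).

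In the large subunit MRPL37, which has no bacterial counterpart, went from 10.3, 11.8 and 13.6 CPM to 15.5, 18.8 and 21.6 CPM, by 0.59 ± 0.07 (adjusted p = 1.72e-08). MRPL39, the homologue of L33 and the shortest member, went from 20.1, 20.7 and 23.5 CPM to 26.1, 32.6 and 35.2 CPM, by 0.58 ± 0.06 (adjusted p = 5.39e-10). Both rose without overlap between the limitations. MRPL32 (L32) changed by 0.52 ± 0.07 and MRPL13, another protein without a bacterial counterpart, by 0.47 ± 0.05. In 7 members all 9 OxGlu-lim libraries exceeded all 9 Glu-lim libraries, as in 8.48% of all genes. The 1 member called lower, MRPL23 (L13), changed by -0.16 ± 0.05 (adjusted p = 0.00954), with -0.51 ± 0.09 in MC untagged against 0.09 ± 0.09 in MC tagged. Without MC tagged OxGlu-lim replicate 1, and on plain totals, no member was called lower.

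Under N-lim, 47 of 54 members were lower than under OxGlu-lim, as were 36% of all genes, and 2 were higher, as were 35.4%. The median member was 0.52 lower on the log2 scale (-0.52, or 0.696-fold), and on plain totals 39 fell and 3 rose. With TMM scaling this was the largest median among the pairs of limitations, and 3 members passed 2-fold. On plain totals its median was -0.38, smaller than those of Et-lim minus OxGlu-lim and OxGlu-lim minus Glu-lim. MRPL39 changed by -1.13 ± 0.06 (adjusted p = 1.03e-16), RSM19 by -1.03 ± 0.06 (7.08e-16) and MRPL37 by -1.0 ± 0.07 (1.92e-13). For 26 members all 9 N-lim libraries lay below all 9 OxGlu-lim libraries, as for 11.1% of all genes. By set, 34 members were lower in DASGIP tagged (28.5% of all genes), 49 in MC tagged (26.1%) and 35 in MC untagged (31.9%), with 2 higher (27.9%), none (27.1%; none at an unadjusted p under 0.05) and 4 (29.2%). The 2 members higher under N-lim on the mean were MRPL23 (0.33 ± 0.05; adjusted p = 1.6e-06) and MRPL33, the homologue of L30 (0.16 ± 0.07; adjusted p = 0.0316), with -0.28 ± 0.12 in MC tagged. The number higher was 1 when any of 7 single libraries was left out.

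**Figure D3:**
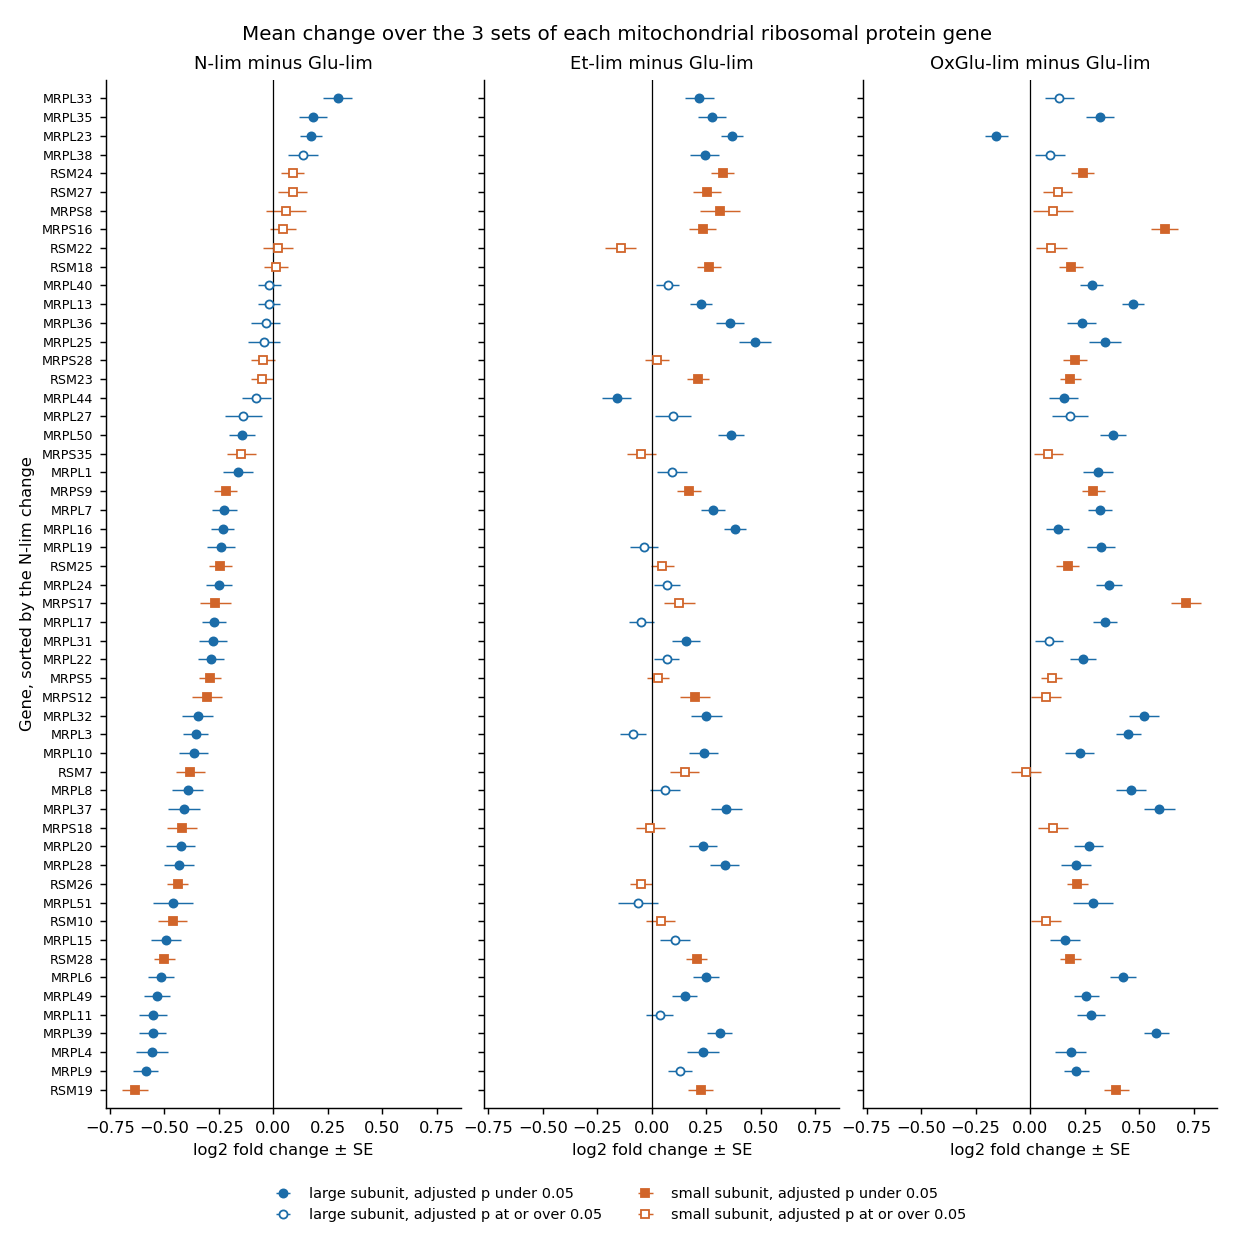
Each row is a gene, sorted by its N-lim change, and each panel gives the log2 fold change ± SE against Glu-lim, averaged over 3 sets, with filled symbols for an adjusted p under 0.05, circles for the large and squares for the small subunit. Under N-lim 35 genes lie left of 0 and 3 right of it with filled symbols, under Et-lim 30 lie right, and under OxGlu-lim 40 lie right. On plain library totals the N-lim panel turns to 29 higher and 2 lower, and under Et-lim more genes are called lower than higher.

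The effect of scarce nitrogen relative to scarce glucose was read from N-lim minus Glu-lim. These cultures also differed in glucose, 6% against 0.75%, so nitrogen and glucose cannot be told apart. With TMM scaling 35 members fell, against 37.4% of all genes, and 3 rose, against 34.3%. The median change was -0.26 (0.836-fold) for the members and -0.02 for all genes. On plain library totals the direction turned: 29 members rose and 2 fell, with a median of 0.17, in data where the median of all genes shifted by 0.41. Relative to the median of all genes the members were at -0.24 with TMM and -0.23 on plain totals, and with the totals of nuclear reading frames as library sizes 36 fell and 3 rose.

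RSM19, the homologue of S19 in the head of the small subunit, fell by most. It stood at 11.2, 13.4 and 15.4 CPM (lowest, median, highest of 9) under N-lim and at 17.5, 21.2 and 23.2 CPM under Glu-lim, with no overlap, a change of -0.63 ± 0.06 (adjusted p = 6.15e-11). Its 3 Puf3-type sites were among the sequences shown. MRPL9, the homologue of L3, a core protein near the peptidyl transferase centre in bacteria, stood at 29.5, 31.4 and 37.9 CPM against 44.1, 49.6 and 62.1 CPM, a change of -0.59 ± 0.06 (adjusted p = 1.89e-10). MRPL39 stood at 12.3, 14 and 17.5 CPM, below all Glu-lim libraries (-0.55 ± 0.06; adjusted p = 1.76e-09).

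MRPL4 (L29), MRPL11 (L10, of the stalk base) and MRPL49 (L21) changed by -0.56 ± 0.07, -0.55 ± 0.06 and -0.53 ± 0.06. Their N-lim and Glu-lim libraries overlapped when the sets were pooled. In 6 members all 9 N-lim libraries were below all 9 Glu-lim libraries, as in 12% of all genes. MRPL33, MRPL35 and MRPL23 rose, MRPL35 being a protein without a bacterial counterpart. MRPL33 had 18.2, 23.5 and 28.5 CPM under N-lim against 15.9, 18.4 and 20.5 CPM under Glu-lim, an overlapping range, and changed by 0.30 ± 0.07 (adjusted p = 0.000244). MRPL35 changed by 0.18 ± 0.06 and MRPL23 by 0.17 ± 0.05. Without MC tagged N-lim replicate 3 the number that rose went from 3 to 5.

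Growth on ethanol, which is respired, was compared with glucose limitation by Et-lim minus Glu-lim. Here 30 members rose, where 30.6% of all genes did, and 1 fell, where 28.7% did, with a median of 0.18 (1.14-fold) against 0.01 for all genes. On plain library totals 3 rose and 13 fell, with a median of -0.02 while all genes shifted by -0.20. MRPL25, a protein without a bacterial counterpart, had 22.5, 28.1 and 32.5 CPM under Glu-lim and 26.2, 38.6 and 44.2 CPM under Et-lim, overlapping, and rose by 0.47 ± 0.07 (adjusted p = 2.62e-06). MRPL16 (L16), which in bacteria lies by the tRNA sites, had 42.0, 47.0 and 53.7 CPM against 49.2, 63.3 and 70.2 CPM and rose by 0.38 ± 0.05 (adjusted p = 3.9e-07).

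MRPL23, MRPL50 (L9), MRPL36 (L31) and MRPL37 rose by 0.37 ± 0.05, 0.36 ± 0.06, 0.36 ± 0.07 and 0.34 ± 0.07. The 1 member that fell was MRPL44, the only one with an intron, at -0.16 ± 0.07 (adjusted p = 0.0407). Its call ended when any of 12 single libraries was left out. No member had all 9 Et-lim libraries above all 9 Glu-lim libraries, against 6.81% of all genes. Against OxGlu-lim, Et-lim had 5 members higher and 24 lower (35.7% and 36.1% of all genes), with a median of -0.10. On plain totals none was higher and 53 were lower, with a median of -0.58 where all genes shifted by -0.50. N-lim against Et-lim had 1 member higher, RSM22 (0.16; no call without any of 11 single libraries), and 46 lower (37.4% and 36.7%), and on plain totals 32 higher and 2 lower. The comparisons with Glu-lim share its 9 libraries, so they are given side by side and not set against each other.

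The number of members called varied by set, with the fewest rises under Et-lim and OxGlu-lim in MC untagged. Each change subtracts the Glu-lim group of its own set, so the comparisons within a set share that baseline. The mean summed Glu-lim level was 2181 CPM in MC untagged, against 1932 CPM in DASGIP tagged and 1854 CPM in MC tagged. For N-lim minus Glu-lim, 11 members fell in DASGIP tagged (28.6% of all genes), 26 in MC tagged (28%) and 36 in MC untagged (32.8%), with medians of -0.05, -0.27 and -0.43. In the DASGIP tagged set 5 members rose (27.3%), against 1 in each MC set (27.2% and 29.4%), and the share that fell, 20.4%, was below that of all genes. For Et-lim, 17 rose in DASGIP tagged (16.9%) and 37 in MC tagged (24.8%), with none lower, though 15.4% and 21.8% of all genes fell. In MC untagged 1 rose (19%) and 6 fell (18.7%), with a median of -0.07.

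For OxGlu-lim, 27 rose in DASGIP tagged (21.7%), 41 in MC tagged (22.5%) and 8 in MC untagged (29.2%), where 5 fell (29%). None fell in the tagged sets, against 22.7% and 22.6% of all genes, and unadjusted p-values under 0.05 gave none either. Medians were 0.28, 0.42 and 0.04. An F test of the difference between sets was passed by 16 members for N-lim (41% of all genes), 11 for Et-lim (14.5%) and 25 for OxGlu-lim (40.8%). On plain totals each of these counts was 4. The Et-lim count was 3 to 27 when 1 library was left out, with 27 without MC untagged Et-lim replicate 2 and 3 without MC untagged Et-lim replicate 1. No batch or date is in the labels, so a set and any batch that ran with it cannot be told apart.

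**Figure D4:**
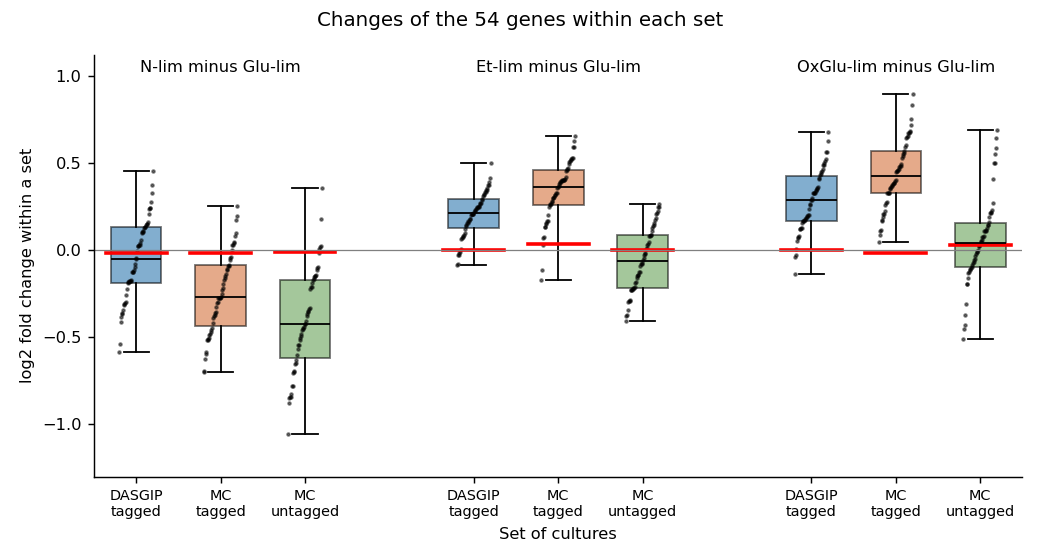
Boxes show the quartiles, and whiskers the full range, of the log2 fold changes of the 54 genes against Glu-lim within each set, with a dot per gene and a red line at the median of all genes tested. All changes of a set are taken against the same Glu-lim group. Member medians run from -0.05 to -0.43 under N-lim, and those of the MC untagged set are -0.07 under Et-lim and 0.04 under OxGlu-lim against 0.21 to 0.42 in the tagged sets; on plain library totals the member medians of the mean over sets turn to 0.17 under N-lim and -0.021 under Et-lim.

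MRPL31, a large subunit protein without a bacterial counterpart, differed most between sets under OxGlu-lim. In DASGIP tagged it had 29.1, 30.8 and 29.0 CPM under Glu-lim and 36.2, 32.9 and 35.3 CPM under OxGlu-lim. In MC tagged it had 26.3, 26.7 and 22.5 CPM against 32.6, 36.2 and 36.6 CPM. In MC untagged the order was opposite, with 28.5, 33.1 and 31.1 CPM under Glu-lim and 22.4, 20.7 and 24.7 CPM under OxGlu-lim. The replicates of the compared groups did not overlap in any set, and the adjusted p of the difference was 0.000191.

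MRPL40, the homologue of L24, rose without overlap in both tagged sets, from 34.3, 33.8 and 35.1 CPM to 47.4, 53.0 and 54.8 CPM in MC tagged. It had 44.9, 36.3 and 48.9 CPM under Glu-lim and 42.3, 40.9 and 39.1 CPM under OxGlu-lim in MC untagged, where the libraries overlapped (adjusted p of the difference = 0.000727). MRPL11 under N-lim had 30.1, 27.4 and 29.6 CPM in DASGIP tagged, overlapping its Glu-lim values of 33.2, 29.1 and 31.9 CPM. In MC untagged it had 19.5, 17.2 and 19.6 CPM against 30.5, 34.4 and 36 CPM, without overlap.

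MRPL3, a large subunit protein without a bacterial ribosomal counterpart, had 46.1, 44.2 and 47.2 CPM under N-lim against 42.0, 43.8 and 48.9 CPM under Glu-lim in DASGIP tagged, which overlapped. In MC untagged it had 31.2, 34.7 and 34.0 CPM against 53.5, 47.2 and 53.8 CPM, without overlap. RSM28, a small subunit protein, had 75.2, 79.2 and 73.3 CPM under Et-lim and 52.4, 52.0 and 60.0 CPM under Glu-lim in MC tagged. In MC untagged it had 65.5, 67.0 and 64.5 CPM under Et-lim and 72.1, 67.9 and 75.1 CPM under Glu-lim, the opposite order and without overlap.

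Whether the vessel mattered was asked with the tagged strain, as MC tagged minus DASGIP tagged averaged over the limitations. Of 54 members 2 were higher, against 17.1% of all genes, and 11 lower, against 17.3%, with a median of -0.01. On plain totals none was higher and 19 were lower, with a median of -0.10 where all genes shifted by -0.09. Under N-lim alone 25 were lower (7.68% of all genes) and none higher (10.6%; none at an unadjusted p under 0.05), with a median of -0.27. Under Et-lim 3 were higher (5.82%) and none lower (5.99%; 1 at an unadjusted p under 0.05), under Glu-lim none was called (9.18% of all genes were higher and 11.9% lower; unadjusted p-values under 0.05 gave 1 higher and 7 lower), and under OxGlu-lim 3 were higher and 1 lower (8.91% and 8.76%). The mean contrast had 6 members lower, not 11, when the second DASGIP tagged library of Et-lim was left out.

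RSM26, a small subunit protein, was lower in MC tagged by -0.19 ± 0.04 (adjusted p = 0.000679), with 26.2, 26.0 and 28.0 CPM against 33.5, 31.1 and 34.1 CPM under N-lim. RSM22 and MRPL49 changed by -0.22 ± 0.06 and -0.19 ± 0.05. MRPS12, the homologue of S12 at the decoding centre, was higher by 0.22 ± 0.06 (adjusted p = 0.00546). Under Et-lim it had 69.5, 64.6 and 62.2 CPM in MC tagged against 49.6, 52.7 and 46.3 CPM in DASGIP tagged, without overlap. Under OxGlu-lim MC tagged replicate 3 stood apart, at 76.9 CPM against 49.2 and 48.8 CPM, and without it the mean change of MRPS12 was 0.15 and still called. RSM7 (S7) was higher by 0.18 ± 0.06, and its call ended without that library, at 0.12.

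Whether the tag on Hap1p mattered was asked as MC tagged minus MC untagged. On the mean no member was higher (8.38% of all genes), with 8 at an unadjusted p under 0.05 and 2 by DESeq2, and 1 was lower (9.77%), with a median of 0.01. The member lower was RSM25, at -0.16 ± 0.05 (adjusted p = 0.0142), and its value under Et-lim alone was 0.10 ± 0.09 (not called). The differences varied in sign by limitation. Under Glu-lim all 54 members had negative differences and 13 were called lower (14.4% of all genes) and none higher (8.17%; none at an unadjusted p under 0.05), with a median of -0.23. Under OxGlu-lim 15 were higher (12.3%) and none lower (11.7%; 1 unadjusted), with a median of 0.15. Under N-lim 3 were higher and 7 lower (17.1% and 15.4%), and under Et-lim none was called in either direction (0.166% and 0.106%), with 12 higher and 0 lower at an unadjusted p under 0.05. On plain totals 29 members were higher on the mean, where all genes shifted by 0.14.

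Both subunits had most of their called members in the same direction. Among the 34 MRPL genes 24 fell and 3 rose under N-lim (median -0.27), 20 rose and 1 fell under Et-lim (0.22), and 29 rose and 1 fell under OxGlu-lim (0.28). Among the 20 MRPS and RSM genes 11 fell and none rose under N-lim (-0.23), 10 rose under Et-lim (0.16) and 11 under OxGlu-lim (0.18), with none lower in either. The 33 members with a bacterial counterpart had medians of -0.27 under N-lim, 0.20 under Et-lim and 0.24 under OxGlu-lim, and the 21 without one -0.24, 0.16 and 0.21. Over all genes 37.4% fell and 34.3% rose under N-lim, 30.6% rose and 28.7% fell under Et-lim, and 32.9% rose and 32.3% fell under OxGlu-lim. All these changes are relative to Glu-lim with TMM scaling, and the subunits were not run on plain totals.

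In CPM per kilobase of coding sequence, averaged over the 12 groups, the members had a median of 59.7 and quartiles of 46.1 and 71.8. The 90th percentile was 2.07 times the 10th, against 14 times for all nuclear reading frames, whose median was 33.7. Cytosolic ribosomal protein genes had a median of 431 and nuclear respiratory chain genes of 506 on this scale. The highest members were MRPL39 at 109, MRPS12 at 108 and MRPS16 at 99.0 CPM per kilobase, and the lowest RSM22 at 26.0, MRPS5 (S5) at 30.2 and RSM23 at 37.4. RSM23 encodes a GTP-binding small subunit protein related to DAP3. Group means of MRPL39 ran from 62.5 to 158 CPM per kilobase, so the order among the highest members depends on the group.

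The span between the highest and lowest group mean was 0.40 to 1.6 on the log2 scale (median 0.81), against a median of 0.89 for all genes and 1.46 for nuclear respiratory chain genes. MRPL51, a protein without a bacterial counterpart, had the widest span. It had 15.9, 12.5 and 16.2 CPM in MC untagged N-lim and 51.6, 43.5 and 40.2 CPM in MC untagged OxGlu-lim, but 27.7, 26.6 and 26.1 CPM against 29.2, 27.7 and 25.9 CPM in DASGIP tagged. MRPL51 overlaps the annotated gene YPR099C, and MRPL19 overlaps YNL184C. With no counting rule or use of strand given, reads of such pairs cannot be told apart, so the values of MRPL51 and MRPL19 are uncertain.

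Over the 12 group means of log2 CPM, each member was set against the mean of the others. Pearson's r had a median of 0.85, exceeded 0.8 in 35 members and was below 0 in 2, MRPL23 (-0.11) and MRPL33 (-0.004). RSM22, the member without the motif, had r = 0.15. Its lowest, median and highest levels were 37.1, 50.7 and 64.7 CPM under N-lim and 39.6, 53.6 and 57.9 CPM under OxGlu-lim, an overlap without a clear order. Its values against Glu-lim were 0.02 ± 0.07, -0.14 ± 0.07 and 0.10 ± 0.07 in the order N-lim, then Et-lim, then OxGlu-lim, none of them called. MRPL23 and MRPL33 hold the motif, so its presence did not go with the shared pattern in every member. These points share libraries and are a description.

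Other genes of mitochondrial translation were read in the same fits, with TMM scaling. For these lists and the companion lists below, the shares of all genes were 34.3% higher and 37.4% lower under N-lim. They were 30.6% and 28.7% under Et-lim, and 32.9% and 32.3% under OxGlu-lim. The companion lists were not run on plain totals. Of 25 mitochondrial ribosomal protein genes of other names, 17 fell and 1 rose under N-lim, 15 rose under Et-lim with none lower, and 22 rose and 1 fell under OxGlu-lim, with medians of -0.20, 0.16 and 0.27. FYV4 rose by 0.56 ± 0.06 and NAM9 by 0.42 ± 0.06 under OxGlu-lim. EHD3, a metabolic enzyme also found on the small subunit, had -1.35 ± 0.13 under N-lim, 0.59 ± 0.12 under Et-lim and -0.78 ± 0.13 under OxGlu-lim.

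Of 13 mitochondrial tRNA synthetase genes 10 fell and 1 rose under N-lim, 9 rose and 1 fell under Et-lim, and 11 rose under OxGlu-lim with none lower (medians -0.22, 0.20 and 0.25). MSY1, for tyrosine, fell by most under N-lim (-0.73 ± 0.06), and MSF1, for phenylalanine, rose by most under OxGlu-lim (0.58 ± 0.07). Of 12 translation factor genes 5 fell and 1 rose under N-lim, 5 rose and 2 fell under Et-lim, and 9 rose under OxGlu-lim. The elongation factor gene MEF1 changed by -0.71 ± 0.06 under N-lim. Of 17 translational activators 6 fell and 2 rose, 9 rose and 2 fell, and 7 rose and 1 fell in the same order. Of 10 assembly and membrane factors 9 fell under N-lim, while under OxGlu-lim 5 rose and 3 fell. Of 9 genes for mitochondrial transcription and RNA turnover, 6 rose and 1 fell under N-lim, with the DNA polymerase gene MIP1 at 0.58 ± 0.05. In the same list 3 rose under Et-lim with none lower, and under OxGlu-lim 8 rose and 1 fell, ABF2, which encodes a protein that packages mitochondrial DNA (-0.41 ± 0.04).

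The respiratory chain and ATP synthase, some of whose core subunits mitochondrial ribosomes make, are given beside the members. All 22 nuclear respiratory chain genes rose under Et-lim, with a median of 0.81 against 0.18 for the members, led by SDH1 (1.54 ± 0.07). Under OxGlu-lim 20 of the 22 fell and 1 rose, where 32.3% and 32.9% of all genes did. The median was -0.41 against 0.23 for the members, CYT1 changing by -0.77 ± 0.06. These falls are with TMM scaling. On plain totals all genes shifted upward under OxGlu-lim, and whether the falls remain there was not tested. ATP synthase genes rose in 13 of 13 under Et-lim (median 0.77) and fell in 10 of 13 under OxGlu-lim (median -0.19). Under N-lim the respiratory chain had 5 higher and 8 lower, with a median of -0.01. Of 137 cytosolic ribosomal protein genes, whose near-identical pairs make single values uncertain, 91 fell and 1 rose under Et-lim (median -0.23) and 65 fell and 8 rose under N-lim (-0.17). Under OxGlu-lim 15 fell and 10 rose (-0.02).

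**Figure D5:**
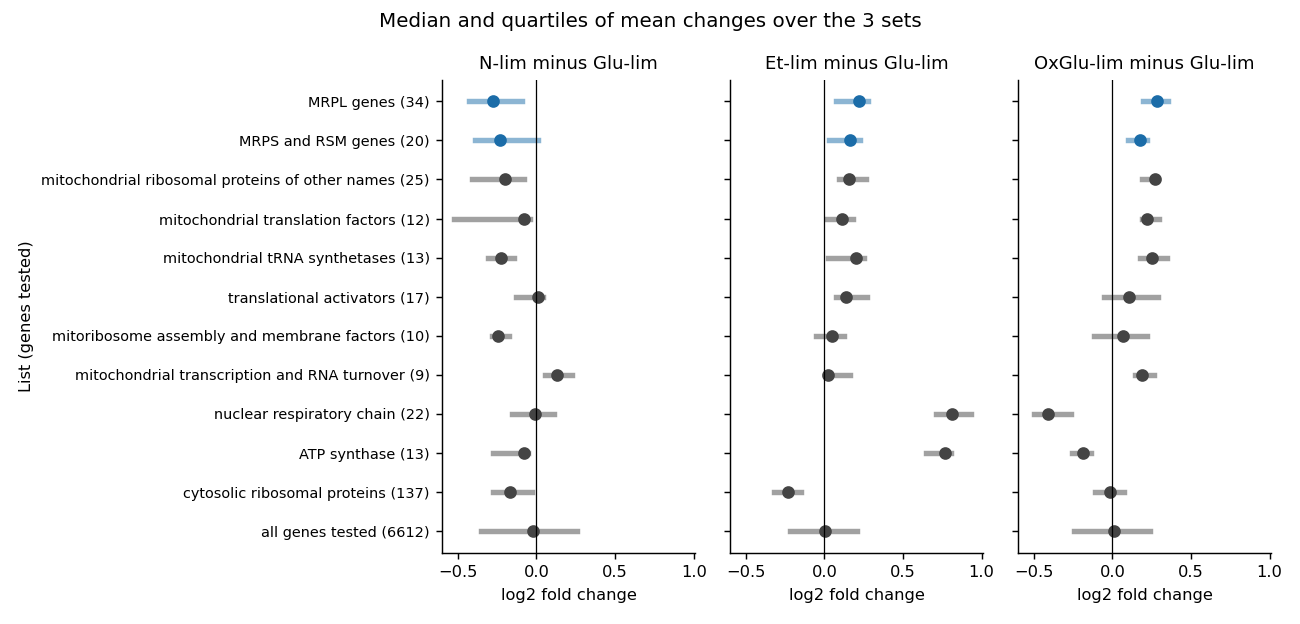
Dots are the median and bars the quartiles of log2 fold changes against Glu-lim, averaged over 3 sets with TMM scaling, for each list with its number of genes. Under OxGlu-lim the mitochondrial ribosomal protein, translation factor and tRNA synthetase lists lie right of 0 (0.18 to 0.28) and the respiratory chain lies left of it (-0.41); on plain library totals all genes shift by 0.41 under N-lim, -0.20 under Et-lim and 0.29 under OxGlu-lim.

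The parts of the ribosome made from mitochondrial DNA fell under N-lim. Mitochondrially encoded genes as a whole also took fewer reads there, 10.9% to 15.9% in group means against 27.0% to 33.9% under Glu-lim. Whether the ribosome parts fell more than other mitochondrial genes was not tested. VAR1, 15S rRNA and 21S rRNA changed by -1.35 ± 0.18, -1.57 ± 0.20 and -1.71 ± 0.16. Ribosomal RNA was removed from the libraries by a kit, and whether that removal touched the mitochondrial rRNAs is not given in the sources used here. Under Et-lim none of the 3 was called, with VAR1 at -0.06 ± 0.17 (adjusted p = 0.774). Under OxGlu-lim VAR1 fell by 0.68 on the log2 scale (SE 0.19; adjusted p = 0.00261), and 21S rRNA rose by 0.57 ± 0.16 (adjusted p = 0.0026). VAR1 was lower under OxGlu-lim in MC untagged alone, with 3.59, 2.17 and 3.04 CPM against 15.6, 22.9 and 29.4 CPM under Glu-lim, without overlap. Its mean was 78.9 ± 18.1 CPM under OxGlu-lim against 62.8 ± 14 CPM under Glu-lim in DASGIP tagged, and 66.2 ± 22.3 against 44.6 ± 12.9 CPM in MC tagged, and the libraries of both tagged sets overlapped. In the same 3 MC untagged libraries 21S rRNA stood at 4414, 3592 and 4137 CPM, against means of 3156 ± 1475 and 3032 ± 905 CPM in DASGIP tagged and MC tagged.

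Among genes outside the 54, the 10 whose group means were most like the mean of the members, over 12 groups, were MSC6 (r = 0.977), MSE1 (0.965), PET123 (0.962), MHR1 (0.952), COA1 (0.951), YGR219W (0.948), YML6 (0.946), YIR040C (0.946), AAD4 (0.944) and PUF3 (0.943). PET123, MHR1 and YML6 are mitochondrial ribosomal proteins of other names and MSE1 is the mitochondrial synthetase for glutamate. By its systematic name YGR219W is a neighbour of the member MRPL9 (YGR220C). With no counting rule or use of strand given, whether these 2 genes share reads was not tested. The r of YGR219W and the values of MRPL9 are uncertain in this respect. Over all other genes tested the median r was -0.02, and 219 of 6558 (3.34%) exceeded 0.8. The share over 0.8 was 20 of 25 for ribosomal proteins of other names and 10 of 13 for tRNA synthetases. It was 0 of 22 for the nuclear respiratory chain and 0 of 137 for cytosolic ribosomal proteins.

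Outside all mitochondrial ribosomal protein genes, 75 of 761 genes with TGTANATA after the stop codon (9.86%) had an r over 0.8 with the members, and 97 of 4985 without it (1.95%). Read the other way, 75 of the 172 genes over 0.8 (43.6%) held the motif, against 13.2% of all 5746 such genes. The median r was 0.15 with the motif and -0.06 without it, so most genes that hold the motif did not follow the members.

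PUF3 mRNA itself had a lowest, median and highest level of 121, 138 and 162 CPM under N-lim, 136, 160 and 180 CPM under Glu-lim, 165, 180 and 195 CPM under Et-lim, and 158, 201 and 255 CPM under OxGlu-lim. It changed by -0.23 ± 0.06 under N-lim (adjusted p = 0.000408), 0.15 ± 0.06 under Et-lim (0.0185) and 0.32 ± 0.06 under OxGlu-lim (9.68e-06). All its N-lim libraries lay below all Et-lim libraries, and its Glu-lim libraries overlapped with those of each other limitation. The values of all regulators are with TMM scaling and were not run on plain totals. HAP4, the activating subunit of the CCAAT-binding complex, changed by 0.20 ± 0.06, 0.64 ± 0.06 and 0.59 ± 0.06, with r = 0.38 to the members. HAP1, the gene that carries the tag, fell under N-lim and Et-lim (-1.16 ± 0.06 and -0.79 ± 0.06) and was not called under OxGlu-lim (0.06 ± 0.06), with r = 0.57.

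Of the other subunits, HAP3 rose under N-lim and Et-lim (0.29 ± 0.06 and 0.44 ± 0.06), HAP5 fell under N-lim (-0.22 ± 0.07), and HAP2 was called in none of the comparisons with Glu-lim (r = -0.03). SFP1, IFH1 and FHL1, regulators of cytosolic ribosomal protein genes, rose under N-lim by 0.24 ± 0.04, 0.54 ± 0.08 and 0.50 ± 0.05. The members fell there with TMM scaling, though not on plain totals. These 3 regulators had r of -0.09, -0.32 and -0.56. CBF1 and RTG1, the latter of the mitochondrial retrograde pathway, changed by -0.18 ± 0.06 and 0.43 ± 0.07 under N-lim, with r of 0.10 and -0.73.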

How the data were processed

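RNA from 36 chemostat cultures was made into stranded total RNA libraries after removal of ribosomal RNA, per the labels' protocols. The submitters' processing notes name Bowtie2, SAMtools, bedtools and build R64, with no versions. What is analysed here are the deposited raw read counts per gene, which are whole numbers, per the file headers. The 36 columns that the authors named CPM were not used, since CPM were computed from the counts. How reads were assigned to genes, and whether strand was used, is not given in the sources used here, and reads of overlapping or antisense genes cannot be told apart. Tables gave 7122 gene lines, and 4 lines in each were not analysed here.

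The quasi-likelihood F test of edgeR 4.0.16 (R 4.3.3) was run on the counts with TMM factors, the default filter on low counts (6612 genes, all 54 members), a model of 12 group means (24 residual degrees of freedom) and Benjamini-Hochberg adjustment over all genes tested at 0.05. The script was tested on simulated data. Limitation contrasts are means of 3 within-set differences, and vessel and strain contrasts means of 4 within-limitation differences that share the MC tagged libraries. Log2 CPM for group means used a prior count of 1. Counting error and biological spread both enter the SE. No identical libraries were found.

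Sites were searched in the RefSeq R64 genome with Python 3.11.15. Members named are those of largest change that passed the test and had the same sign in every set or limitation, up to 6 each way per limitation and 3 per vessel or strain, those of highest and lowest level per length, those whose difference between sets had the lowest p, and the 10 most like genes. Companion genes were named sparingly. RSM22, MRPL51 and MRPL23 under OxGlu-lim were singled out after their values were seen. Members and lists were chosen with earlier results of these data known. Alternatives were other size factors (DESeq2's, upper quartile, plain totals, totals of nuclear reading frames), DESeq2 1.42.0, other filters, fewer rows or libraries, no overlapping members, a replicate block, and each library left out.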

Additional observations from a re-analysis of the deposited data

Results flagged for a closer look

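Among 27 pairs of a named member and a limitation, 10 had changes against Glu-lim that differed between the 3 sets. The F test was of the difference itself, at the adjusted p given for each. Some pairs were named because they had the lowest p in this same test, so their passing was fixed beforehand. They are MRPL11 and MRPL3 under N-lim, RSM28 and MRPL9 under Et-lim, and MRPL31 and MRPL40 under OxGlu-lim. In the N-lim comparison 41% of all genes passed the test, and the OxGlu-lim and Et-lim shares were 40.8% and 14.5%. The count of 10 therefore does not show that members differ between sets more often than other genes. Changes are log2 values ± SE, in the order DASGIP tagged, MC tagged and MC untagged.

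Under N-lim, MRPL11 (adjusted p = 0.00112) had -0.11 ± 0.11, -0.70 ± 0.11 and -0.84 ± 0.11. MRPL3 (0.00152) had 0.03 ± 0.10, -0.47 ± 0.10 and -0.63 ± 0.10. MRPL9 (0.0133) had -0.37 ± 0.10, -0.51 ± 0.10 and -0.88 ± 0.10, and MRPL4 (0.0163) had -0.19 ± 0.13, -0.70 ± 0.13 and -0.78 ± 0.12.

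Under OxGlu-lim, MRPL31 (0.000191) had 0.23 ± 0.11, 0.48 ± 0.11 and -0.45 ± 0.11. MRPL40 (0.000727) had 0.35 ± 0.09, 0.59 ± 0.09 and -0.09 ± 0.09. MRPL13 (0.00172) had 0.50 ± 0.09, 0.75 ± 0.09 and 0.16 ± 0.09, and MRPS16 (0.0288) had 0.45 ± 0.10, 0.90 ± 0.10 and 0.50 ± 0.10.

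Under Et-lim, RSM28 (0.00314) had 0.27 ± 0.08, 0.47 ± 0.08 and -0.13 ± 0.08, and MRPL9 (0.00852) had 0.20 ± 0.10, 0.41 ± 0.10 and -0.22 ± 0.10. In all 10 the MC untagged value lay below the MC tagged one. These values share the Glu-lim group of each set, so the 10 are not separate observations. Under Glu-lim all 54 members had lower values in MC tagged than in MC untagged. The sets differ in vessel or strain and may differ in batch, which cannot be told apart.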

How the results depend on the processing

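Plain library totals moved most results. The cause was not tested beyond the shift of all genes given in the report. Shares of all genes called on plain totals are not given, so the counts below are to be read beside that shift. Medians of the members under plain totals were 0.17 for N-lim minus Glu-lim, -0.021 for Et-lim minus Glu-lim, 0.52 for OxGlu-lim minus Glu-lim, 0.25 for N-lim minus Et-lim, -0.38 for N-lim minus OxGlu-lim, -0.58 for Et-lim minus OxGlu-lim, -0.10 for the vessel and 0.16 for the strain. Members called (higher and lower) were then 29 and 2, 3 and 13, 53 and 0, 32 and 2, 3 and 39, and 0 and 53, with 0 and 19 for the vessel and 29 and 0 for the strain, and 4 members differed between sets under each limitation. With totals of nuclear reading frames the median was -0.62 for N-lim minus OxGlu-lim and -0.21 for Et-lim minus OxGlu-lim. Lower calls were then 3 for Et-lim, 0 for OxGlu-lim, 5 for the vessel and 0 for the strain, higher calls 2 for Et-lim minus OxGlu-lim, 1 for N-lim minus OxGlu-lim and 6 for the strain, and 2 and 13 members differed between sets under Et-lim and OxGlu-lim.

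Upper-quartile factors gave 2 higher for Et-lim minus OxGlu-lim, 5 lower for the vessel, 3 higher for the strain, 1 higher for N-lim minus OxGlu-lim and 3 differing between sets under Et-lim. DESeq2's size factors in edgeR gave 3 higher for Et-lim minus OxGlu-lim and 1 higher for the strain, and DESeq2 itself 2 higher for the strain. Without mitochondrial and small RNA genes 0 fell under Et-lim, 2 were higher for the strain and 5 differed under Et-lim. With only the libraries compared 2 fell under Et-lim, 2 were higher for Et-lim minus OxGlu-lim, 1 for the strain and 0 for N-lim minus Et-lim. A filter of 5 CPM in 3 libraries left 0 higher for N-lim minus Et-lim and 1 for N-lim minus OxGlu-lim. Testing without a filter on low counts or leaving out the overlapping members moved none of these counts by over 1.5 times.

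The deviations of same-numbered libraries had a median correlation of -0.003 over 198 pairs, with 28 over 0.1. Those of differently numbered libraries had 0.004 over 396 pairs, with 47 over 0.1. The pairs were pooled over all sets, so pairing by replicate number within a set was not tested. With the replicate block 2 members fell under Et-lim, not 1, and no other count moved by over 1.5 times.

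With each library left out in turn, the counts (higher, then lower) ran from 3 to 5 and 33 to 36 for N-lim, 28 to 33 and 0 to 1 for Et-lim, 37 to 45 and 0 to 1 for OxGlu-lim, 0 to 1 and 45 to 47 for N-lim minus Et-lim, 1 to 2 and 47 to 48 for N-lim minus OxGlu-lim, 2 to 8 and 22 to 27 for Et-lim minus OxGlu-lim, 1 to 3 and 6 to 12 for the vessel, and 0 to 3 and 1 to 2 for the strain. Members differing between sets ran from 12 to 22, 3 to 27 and 20 to 30 under N-lim, then Et-lim, then OxGlu-lim. The vessel had 6 lower without DASGIP tagged Et-lim replicate 2 and 1 higher without MC tagged OxGlu-lim replicate 3. N-lim had 5 higher without MC tagged N-lim replicate 3, and the strain 2 lower without the first Glu-lim library of MC tagged or the second of MC untagged. The strain had 3 higher without the third N-lim or first OxGlu-lim library of MC tagged, or the second Et-lim library of MC untagged. Et-lim minus OxGlu-lim had 8 higher without MC untagged Et-lim replicate 1, and 22 members differed between sets under Et-lim without DASGIP tagged Et-lim replicate 1. Medians ran from -0.28 to -0.24 for N-lim, 0.15 to 0.20 for Et-lim, 0.21 to 0.30 for OxGlu-lim, -0.42 to -0.35 for N-lim minus Et-lim, -0.56 to -0.49 for N-lim minus OxGlu-lim, -0.13 to -0.06 for Et-lim minus OxGlu-lim, -0.03 to 0.007 for the vessel and -0.01 to 0.03 for the strain.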
